A study of Mus musculus with 6 samples.

Results

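Serpin and WFDC protease inhibitors of the mouse mammary gland were compared between 10 and 5 weeks of age. The members are the genes whose single symbol in the array annotation starts with Serpin or Wfdc, with Wfdc18 left out. There were 50 such genes (40 Serpin and 10 Wfdc genes) among 18193 genes with a name on the array, and they had 67 probe sets. For each gene the probe set with the highest mean over all pools was read. The animals were female bitransgenic mice, the offspring of the line that the labels call the LH mouse and of the MMTV-neu mouse, in which a mammary tumour virus promoter drives the neu (Erbb2) oncogene in mammary epithelium. Both transgenes were present at both ages, and no group without them was analysed here. RNA of whole mammary gland was pooled from 3 animals for each array, with 3 pools from 9 animals at 10 weeks and 3 pools from 9 animals at 5 weeks. Pools are numbered in the order of their records, so the same number at both ages does not link them.

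Serpins are proteins of one fold that mostly act as suicide substrates: the protease cuts an exposed loop, the serpin snaps into a new shape, and the enzyme stays trapped. Some members have lost this activity and act as chaperones or hormone carriers. WFDC proteins carry the small four-disulfide core first described in whey acidic protein of rodent milk, and many of them inhibit serine proteases or kill bacteria. In the mammary gland, protease inhibitors of both families are known from epithelium, stroma, blood-derived cells and milk.

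The values are linear signal intensities, and the median over all probe sets was 156.4 to 172.5 on the 6 arrays. Pools of the same age correlated at 0.973 to 0.978 and pools of different ages at 0.932 to 0.955, on log2(signal + 32). As a check of the tissue label, luminal markers (Krt8, Krt18, Krt19, Epcam, Cldn3, Cldn4) were all tested, and their summed signal was 41727 to 48287 at 10 weeks and 24512 to 30258 at 5 weeks. The sum of 6 fibroblast markers was 48733 to 52249 and 68064 to 82223, and that of 5 endothelial markers 2959 to 3726 and 5271 to 5929. The sum of 5 skeletal muscle markers was 4268, 32803 and 30202 at 10 weeks, against 67586, 39977 and 66341 at 5 weeks. The sum of 5 milk genes of the alveoli was 78404 to 89411 and 49108 to 66289, with Lalba and Btn1a1 called higher and the 3 caseins not passing. Of 5 mast cell markers Cpa3, Tpsb2, Cma1 and Mcpt4 were lower and Kit was higher, with sums of 3543 to 3945 and 2937 to 4538. Kit, the brightest of the 5, read 2472.5 to 3162.7 at 10 weeks and 1399.9 to 2044.4 at 5 weeks. The other 4 mast cell markers fell without overlap. The luminal and milk sums were thus higher at 10 weeks and the fibroblast, endothelial and muscle sums lower, without overlap of the ages. The mast cell sum, with its opposed parts, overlapped. The part of these cell types in the results was not tested. In bulk tissue, fewer cells of a type and less RNA per cell cannot be told apart. A probe set's difference is given as the mean of log2(signal + 32) at 10 weeks minus that at 5 weeks, which understates changes of dim genes.

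Upstream sequences are shown first for the Wfdc genes with the largest rises, for a gene of the same chromosomal cluster that fell, for a chromosome 1 trio of clade B serpins that moved in opposite directions, and for the serpin with the largest fall among tested members. Each run is the 250 bases before the annotated start in RefSeq, build GRCm38.p6, written 5′ to 3′ on the gene's strand. Capitals mark the letters TTCNNNGAA, the core that STAT factors bind, or TGANTCA, the core that AP-1 binds. Both cores read the same on either strand.
Wfdc3, chr2:164743268-164743517 (minus strand): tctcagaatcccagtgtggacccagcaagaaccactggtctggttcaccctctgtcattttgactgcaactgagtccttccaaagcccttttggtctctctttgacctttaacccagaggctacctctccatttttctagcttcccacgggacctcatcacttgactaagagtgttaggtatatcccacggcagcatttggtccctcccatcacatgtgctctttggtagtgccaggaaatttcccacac
Wfdc12, chr2:164190559-164190808 (minus strand): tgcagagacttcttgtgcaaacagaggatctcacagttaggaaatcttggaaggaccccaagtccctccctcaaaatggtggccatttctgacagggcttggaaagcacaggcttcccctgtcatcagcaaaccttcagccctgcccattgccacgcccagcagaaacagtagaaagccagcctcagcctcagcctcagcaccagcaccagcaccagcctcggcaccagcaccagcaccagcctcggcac
Wfdc2, chr2:164562465-164562714 (plus strand): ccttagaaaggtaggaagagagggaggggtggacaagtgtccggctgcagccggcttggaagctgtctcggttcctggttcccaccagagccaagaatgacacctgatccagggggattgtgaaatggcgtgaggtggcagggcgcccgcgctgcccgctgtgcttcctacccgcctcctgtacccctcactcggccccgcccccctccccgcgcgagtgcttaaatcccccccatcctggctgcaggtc
Serpinb5, chr1:106860925-106861174 (plus strand): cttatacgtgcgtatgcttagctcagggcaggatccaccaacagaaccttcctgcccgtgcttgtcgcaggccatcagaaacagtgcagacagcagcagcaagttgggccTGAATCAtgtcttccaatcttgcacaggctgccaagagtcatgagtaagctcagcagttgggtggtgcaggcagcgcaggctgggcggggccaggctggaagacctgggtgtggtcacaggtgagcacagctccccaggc
Serpinb11, chr1:107362064-107362313 (plus strand): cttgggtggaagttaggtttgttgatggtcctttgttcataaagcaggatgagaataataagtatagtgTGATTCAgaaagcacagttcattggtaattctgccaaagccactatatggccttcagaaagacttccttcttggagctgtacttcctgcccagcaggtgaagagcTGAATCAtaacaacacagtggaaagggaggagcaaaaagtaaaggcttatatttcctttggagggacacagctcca
Serpinb8, chr1:107589756-107590005 (plus strand): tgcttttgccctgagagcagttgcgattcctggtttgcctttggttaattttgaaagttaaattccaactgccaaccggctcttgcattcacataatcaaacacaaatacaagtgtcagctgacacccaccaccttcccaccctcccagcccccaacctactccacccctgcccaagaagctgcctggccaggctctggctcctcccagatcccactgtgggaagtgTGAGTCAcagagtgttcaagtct
Serpinb6a, chr13:34002795-34003044 (minus strand): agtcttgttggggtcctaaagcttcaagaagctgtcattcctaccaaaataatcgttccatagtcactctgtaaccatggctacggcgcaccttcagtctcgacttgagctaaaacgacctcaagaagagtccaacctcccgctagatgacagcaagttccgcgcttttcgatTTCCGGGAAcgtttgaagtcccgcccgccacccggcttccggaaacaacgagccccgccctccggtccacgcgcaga

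RefSeq promoters were found for 41 of the 50 members, and for 13 of the 15 that passed the test described below. These 41 genes had 49 windows, so a share of genes and a share of windows are not the same measure. The AP-1 letters stood in a window of 8 of the 41 genes, and 6.75% of 32851 promoter windows of this length held them. Among members that passed the test, Serpinb5, Serpinb8 and Serpinb11 held them, which are the 3 genes of the chromosome 1 cluster that passed. Serpina1b and Serpina1c also held them and did not pass. The other 3 genes, Serpinb2, Serpinb7 and Serpinb12, lie in the same chromosome 1 cluster and were too dim to be tested. Of the measured genes of that cluster only Serpinb3a lacked the letters, and it was also too dim to be tested. Every gene tested in the cluster passed, so the letters cannot be compared there between genes that passed and genes that did not. Distances from the start differed: the match began 140 bases before it in Serpinb5, 23 in Serpinb8, and 181 and 76 in Serpinb11. The STAT letters stood in windows of 6 of the 41 genes against 7.02% of all windows. Serpinb6a held them 77 bases before its start, and the window of its other annotated start did not hold them. The other 5 genes were too dim to be tested. TATAAA, searched on both strands, was in windows of 7 members and in 12.4% of all windows. All 7 were too dim to be tested. The heat shock element core, searched as the units GAA, TTC and GAA with any 2 bases between neighbours and on both strands, was in none of the members' windows, Serpinh1 included, and in 0.466% of all windows. The windows also differed in CpG dinucleotides, whose median over all promoters was 6. Among genes that rose, Wfdc17 had 0, Wfdc3 had 2, Wfdc12 and Serpinf2 had 3 and Serpinb5 had 6. Among genes that fell, Serpinb6e and Serpinb11 had 0, Serpina3n had 1, Serpinf1 and Serpinb8 had 2, Serpinh1 had 11 and Wfdc2 had 14, and the windows of Serpinb6a had 20 and 2. The counts of the genes that rose lay within the range of those that fell. A match of letters is a description of the window and shows no binding.

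At 10 weeks the 2 families moved in both directions. Wfdc3, Wfdc12 and Wfdc17 had the largest rises, and most serpins that passed the test were lower. Of the 50 genes, 25 were bright enough to be tested, because probe sets whose mean ranked in the dimmest 40% were not tested. Limma with Benjamini-Hochberg adjustment over all 27022 probe sets kept called 5 of these 25 higher and 10 lower at an adjusted p of 0.05. Among all 13002 genes tested, 34.1% passed, with 15.3% higher and 18.7% lower. The members' shares were 20% and 40%, with a median difference of -0.32 where that of all genes was 0. Among the 17 Serpin genes tested 2 rose and 8 fell, and among the 8 Wfdc genes 3 rose and 2 fell. In 15 of the 25 members tested, the 3 pools of one age lay apart from the 3 of the other. This was so for 50.3% of all genes tested (24.0% with 10 weeks above and 26.3% with 10 weeks below). The 15 were the genes that passed, and a pass with 3 pools per age leaves little room for overlap, so the match adds no support. A gene that passed a filter on its mean only through a bright age had to differ, so the counts describe the tested genes and not the whole families.

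**Figure D1:**
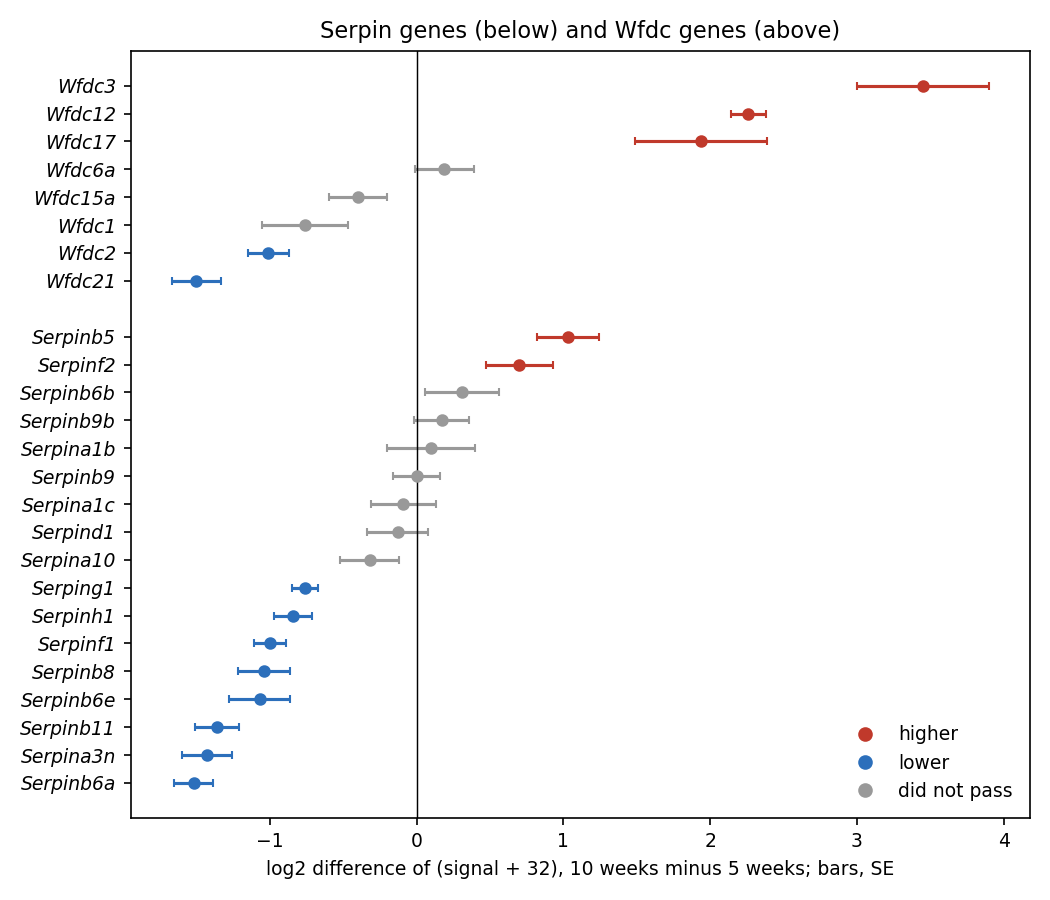
Log2 difference of (signal + 32) between 10 and 5 weeks for the 25 Serpin and Wfdc genes tested; points are estimates from 3 pools per age, bars the SE, and colours mark genes that were higher, lower or did not pass. Wfdc3, Wfdc12 and Wfdc17 lie between 1.94 and 3.45, and the 8 serpins that fell lie between -0.76 and -1.52.

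Wfdc3 had the largest rise. Its signal was 4510.9, 1569.1 and 3634.8 at 10 weeks, against 433.7, 250.2 and 123.8 at 5 weeks. Every 10-week pool lay above every 5-week pool, but 10-week pool 2 was well below the other two. The means were 3238 ± 1510 (SD, n = 3) and 269 ± 156 (SD, n = 3), and the log2 difference was 3.45 ± 0.45 (SE), with an adjusted p of 0.000722. A second, dimmer Wfdc3 probe set did not show this rise. It read 156.9, 197.8 and 182.8 at 10 weeks and 142.1, 219.5 and 168.3 at 5 weeks, with overlapping ages and a difference of 0.03 ± 0.19 (SE, adjusted p = 0.924). With the probe sets averaged the difference was 1.74.

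Wfdc12, known as an antibacterial WAP protein (SWAM2), gave the tightest rise. The 10-week pools read 3152.6, 3571.3 and 4148.2 and the 5-week pools 785, 696.4 and 696.1. The 2 ages were far apart and the pools of each age close together. The mean signal was 4.99 times higher at 10 weeks, and the log2 difference was 2.26 ± 0.12 (SE, adjusted p = 3.1e-05). Wfdc12 lies in a chromosomal cluster of WAP genes, with Wfdc5 and Wfdc15a as its nearest coding neighbours in RefSeq. Wfdc15a, which read 139.3, 153.3 and 226.4 at 10 weeks and 242.4, 205.7 and 258.2 at 5 weeks, did not pass (-0.40 ± 0.20, adjusted p = 0.16). Wfdc5 was too dim to be tested, with means of 105 ± 20.3 (SD, n = 3) and 83.0 ± 23.8 (SD, n = 3).

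Wfdc17, a WAP gene known from activated macrophages and microglia, also rose. Its 10-week signals were 7193.1, 1662.8 and 4724.3, against 1285.4, 785.3 and 933.4 at 5 weeks. As for Wfdc3, 10-week pool 2 was the lowest of its age, here only a little above the highest 5-week pool. The difference was 1.94 ± 0.45 (SE, adjusted p = 0.012), and the call was lost with a robust variance model (adjusted p = 0.0608). Without 10-week pool 2 it was 2.53, and without 10-week pool 1 it was 1.49. Of 4 macrophage markers, Adgre1 was higher (0.42), Mrc1 (-1.10) and Csf1r (-0.28) were lower, and Cd68 did not pass (-0.14). Their summed signal was 9749 to 10368 at 10 weeks and 12520 to 13125 at 5 weeks.

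Wfdc21, a small secreted WAP protein, moved the opposite way. It read 211.2, 237.5 and 302.7 at 10 weeks and 905.5, 740.3 and 651.6 at 5 weeks, without overlap. The difference was -1.50 ± 0.17 (SE, adjusted p = 0.000424). In RefSeq a single coding gene separates it from Wfdc17, so the pair of near neighbours differed in direction. Wfdc2, which encodes the epididymal protein HE4, fell as well. Its signals were 733, 530.7 and 627.8 at 10 weeks and 1380.3, 1209.8 and 1284.3 at 5 weeks, with 10-week pool 2 again the lowest. The mean was 2.05 times higher at 5 weeks (log2 difference -1.01 ± 0.14 SE, adjusted p = 0.000936).

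The other Wfdc genes gave no call. Wfdc1 read 69.1, 137 and 97.6 at 10 weeks and 201.4, 120.1 and 268.3 at 5 weeks. The ages overlapped through 5-week pool 2, and the difference was -0.76 ± 0.29 (SE, adjusted p = 0.0787). Without that pool it was -1.02 with an adjusted p of 0.0246. The 10-week mean of 101 was below the level at which a probe set was kept, a signal of about 103. Wfdc1 was thus tested through its 5-week values in both fits. Wfdc6a, with means of 117 ± 13.5 (SD, n = 3) and 99.3 ± 24.5 (SD, n = 3), did not pass either (adjusted p = 0.504). It was the dimmest member kept, at a mean log2 value of 7.12, and Wfdc15b fell just outside the filter at 7.06. Wfdc15b, the antibacterial protein SWAM1, read 158.6, 122.7 and 98.5 at 10 weeks and 86.8, 76.1 and 82.6 at 5 weeks, and with no filter it did not pass (0.46 ± 0.21, adjusted p = 0.192).

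**Figure D2:**
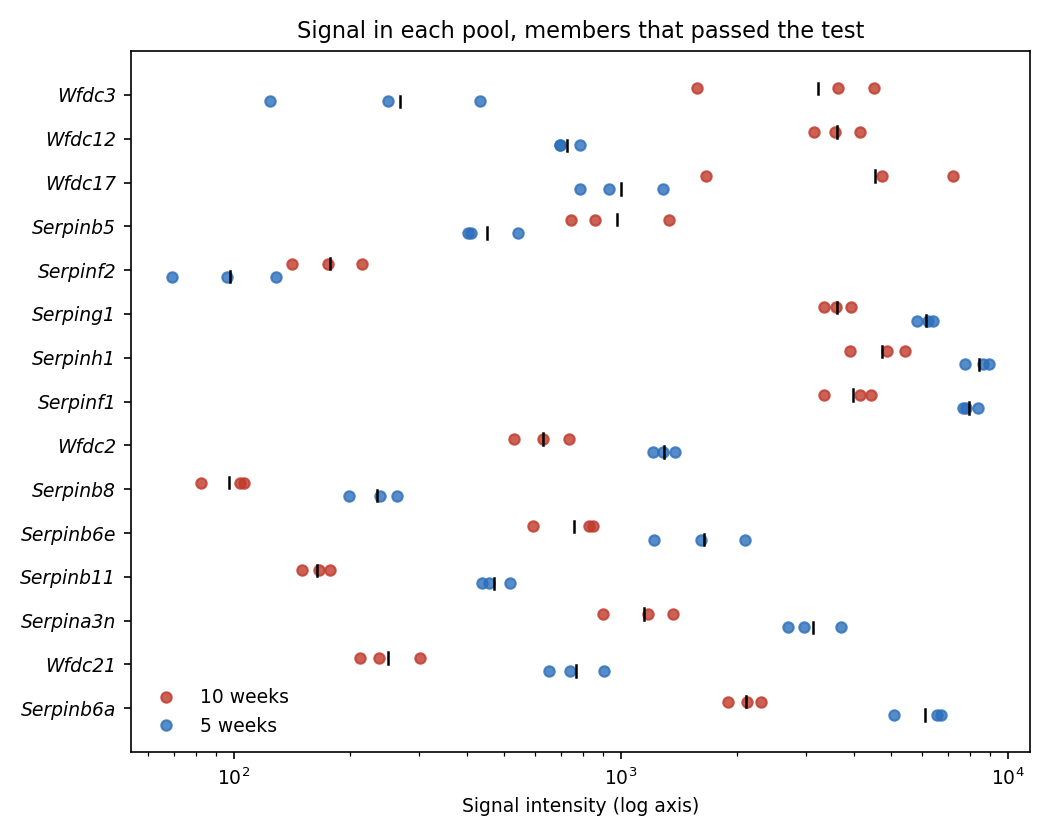
Signal intensity of each pool (points; log axis) for the 15 Serpin and Wfdc genes that passed the test, with the mean of each age as a vertical bar. The ages do not overlap in any of the 15, while the 10-week pools of Wfdc3 (1569.1 to 4510.9) and Wfdc17 (1662.8 to 7193.1) spread widely.

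Clade B serpins stay mostly inside cells, where they guard against proteases that leak from granules and lysosomes. Of 18 on the array 8 were tested, and 4 of these fell while 1 rose, where 18.7% of all genes tested fell and 15.3% rose. Serpinb6a, an inhibitor of cathepsin G and trypsin-like enzymes, fell most: it read 1889.2, 2113.7 and 2306.8 at 10 weeks and 6717.9, 5077.5 and 6567.6 at 5 weeks. The ages lay far apart, with means of 2103 ± 209 (SD, n = 3) and 6121 ± 907 (SD, n = 3). The log2 difference of -1.52 ± 0.13 (SE) had an adjusted p of 0.000118.

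Serpinb6e, a neighbouring paralog, gave 844.7, 591.6 and 828.3 at 10 weeks and 2097.7, 1608.6 and 1219.1 at 5 weeks. It was lower without overlap (-1.07 ± 0.21 SE, adjusted p = 0.00524). Its probe set is of the kind that can match several related sequences, so signal from Serpinb6a cannot be told apart from its own. Another paralog, Serpinb6b, did not follow, with 291.5, 264.6 and 391.3 at 10 weeks and 170.1, 350.6 and 244.8 at 5 weeks (0.31 ± 0.25 SE, adjusted p = 0.382). The ages overlapped in Serpinb6b, and Serpinb6c was too dim to be tested.

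Serpinb11 read 165.7, 149.8 and 176.7 at 10 weeks and 457.1, 436.6 and 518.2 at 5 weeks. The pools of each age were close together, and the difference was -1.36 ± 0.15 (SE, adjusted p = 0.000302). Serpinb8, known to inhibit the proprotein convertase furin, fell from 198.6, 263.7 and 238.7 at 5 weeks to 106, 82.2 and 103.9 at 10 weeks (-1.04 ± 0.18 SE, adjusted p = 0.00291). Its second probe set gave -0.81 (adjusted p = 0.0154). The 10-week mean of 97.4 was below the level at which a probe set was kept, a signal of about 103, so the gene was tested through its 5-week values. Furin itself did not pass (0.12 ± 0.12 SE, adjusted p = 0.47).

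Serpinb5, or maspin, a serpin first described in mammary epithelium that does not inhibit proteases, was the exception among clade B genes. Its pools read 1327.6, 857.4 and 742.8 at 10 weeks and 543.2, 409 and 403.4 at 5 weeks. All 10-week pools were above all 5-week pools, pool 1 being the highest of its age. The means were 976 ± 310 (SD, n = 3) and 452 ± 79.1 (SD, n = 3), a difference of 1.03 ± 0.21 (SE, adjusted p = 0.0076). The other 2 tested probe sets of the gene gave 0.86 and 0.87 (adjusted p = 0.0147 and 0.0133), and a dimmer one was also higher in every 10-week pool. Basal and myoepithelial markers, cells in which maspin is known, gave 3 higher (Krt14, Acta2, Myh11) and 1 lower (Oxtr) of 6, with sums of 20694 to 22188 at 10 weeks and 17502 to 18678 at 5 weeks.

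Serpinb9, the granzyme B inhibitor, read 868, 813.5 and 658 at 10 weeks and 812, 879.5 and 646 at 5 weeks. The ages overlapped, and the 95% interval of the log2 difference ran from -0.35 to 0.36. A dimmer Serpinb9 probe set was lower in every 10-week pool (178.7, 187.2 and 147.6 against 212.6, 320.1 and 238.1) and did not pass (-0.50 ± 0.19 SE, adjusted p = 0.0768). Granzyme B itself (Gzmb, named after its values were seen) rose, from 146.2, 126.4 and 123.5 at 5 weeks to 280.2, 346.7 and 243 at 10 weeks (0.96 ± 0.17 SE, adjusted p = 0.00382). Serpinb9b did not pass (0.17 ± 0.19 SE, adjusted p = 0.548).

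Serpinb1a, an inhibitor of neutrophil elastase, cathepsin G and proteinase 3, was left out by the filter although its ages lay far apart. It read 394.1, 186.4 and 308.2 at 5 weeks and 12.1, 7.7 and 14.5 at 10 weeks. The 10-week signals lay at the bottom of the arrays' range, and the 5-week signals were above the array medians. With no filter the difference was -2.87 ± 0.27 (SE, adjusted p = 0.000644). With an offset of 100 it was -1.79 ± 0.19 (SE, adjusted p = 0.000258), so its size rests on the offset. Under that offset Serpinb1a passed the filter through its 5-week values, its 10-week mean signal being 11.4. The other Serpinb1a probe set read 165.3, 104.3 and 128.5 at 5 weeks and 13.7, 22.4 and 66.1 at 10 weeks, again without overlap. Of 25 members below the filter, Serpinb1a was the only one that passed the test when no filter was used. It was named after its values were seen.

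The proteases that Serpinb1a inhibits did not all behave alike. Prtn3, proteinase 3, fell from 1881, 2039.1 and 1906.4 at 5 weeks to 553.5, 310.5 and 376.2 at 10 weeks (-2.18 ± 0.18 SE, adjusted p = 0.00011). Elane, neutrophil elastase, was dim, with 125.7, 145.3 and 132.2 at 10 weeks and 160.4, 42.7 and 101.5 at 5 weeks, and did not pass (0.42 ± 0.31 SE, adjusted p = 0.353). Cathepsin G (Ctsg) was too dim to be tested. Of the neutrophil markers, S100a8 rose (1.49), Mpo did not pass (-0.54) and S100a9 was below the filter, with sums of 531 to 752 at 10 weeks and 290 to 437 at 5 weeks.

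**Figure D3:**
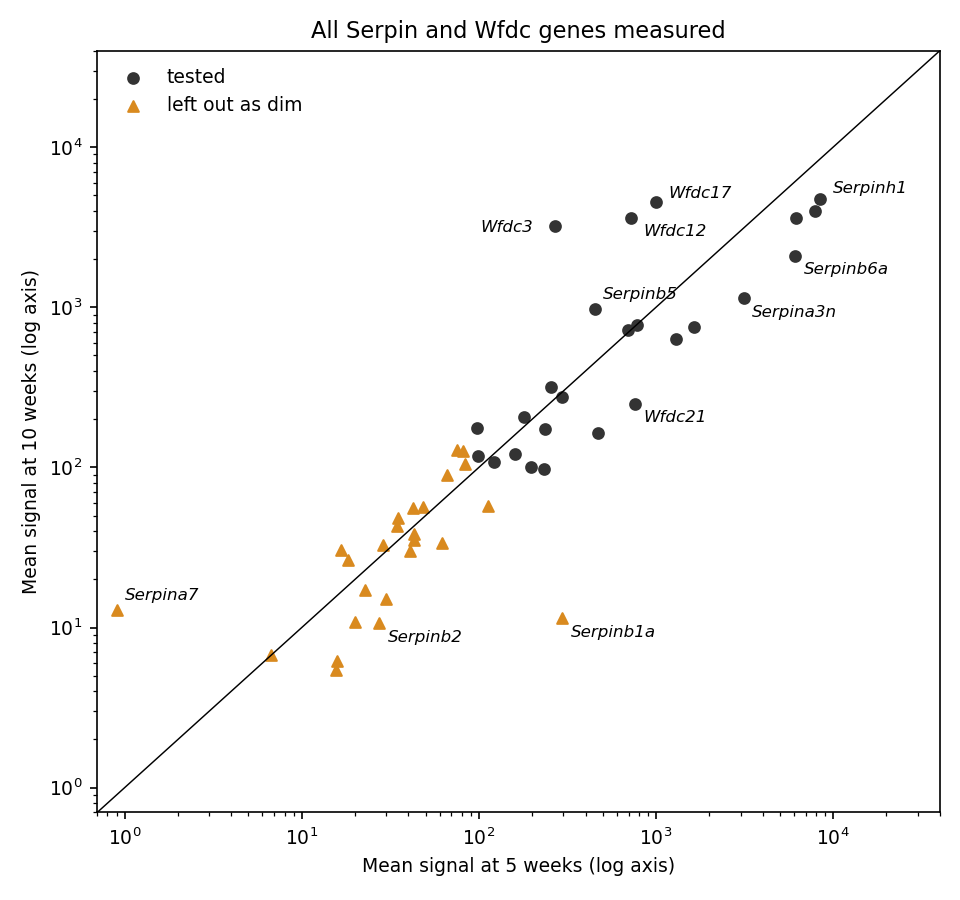
Mean signal at 10 weeks against mean signal at 5 weeks (both log axes, n = 3 pools each) for all 50 Serpin and Wfdc genes; circles were tested, triangles were left out as dim, and the line marks equal signals. Serpinb1a lies far below the line, with a mean of 296 at 5 weeks and 11.4 at 10 weeks. Serpina7 lies off it through a single 10-week pool, with 36.5 there against 1 and 0.9 in the other 10-week pools.

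Secreted inhibitors of plasma and extracellular proteases came next. Serpina3n, a mouse counterpart of the acute phase inhibitor antichymotrypsin, read 1171.4, 900.1 and 1361.2 at 10 weeks and 3702.4, 2979.1 and 2705.2 at 5 weeks. It was lower in every 10-week pool by a clear margin, with a difference of -1.43 ± 0.17 (SE, adjusted p = 0.00046). Serpina3n belongs to a family of close paralogs, of which Serpina3a and Serpina3i were measured and were too dim to be tested.

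Serping1, the C1 inhibitor that restrains the first complement proteases, fell from 6217.9, 5811 and 6409.6 to 3604.7, 3354.5 and 3920.3 (-0.76 ± 0.09 SE, adjusted p = 0.000591). Its target C1s1 fell from 2851.8, 2831.8 and 2957.8 to 938.4, 1040 and 994.6 (-1.51 ± 0.09 SE, adjusted p = 4.16e-05). C1ra, the partner of C1s and named after its values were seen, fell by 1.40 on the log2 scale (adjusted p = 0.000126). The inhibitor and these proteases were lower at 10 weeks without overlap, as were 26.3% of all genes tested. Masp1, another complement protease of the list and also named after its values were seen, overlapped between ages. It did not pass (-0.27 ± 0.19 SE, adjusted p = 0.324).

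Serpinf2, the plasmin inhibitor alpha-2-antiplasmin, was higher at 10 weeks: 141.4, 214.5 and 175.5 against 128.8, 69 and 95.8. The gap between the ages was small, and the call was borderline (0.70 ± 0.23 SE, adjusted p = 0.047). The 5-week mean of 97.9 was below the filter's signal of about 103, so the gene was tested through its 10-week values. Leaving out a single pool ended the call in 4 cases: the adjusted p became 0.142 and 0.106 when pool 2 or 3 of the older age was dropped, and 0.131 and 0.1 for pool 2 or 3 of the younger. It also missed the threshold with no filter (0.0941) or with array weights (0.0559). Its target plasminogen (Plg) was too dim to be tested. Plat, the tissue plasminogen activator, fell from 1412.4, 1188.8 and 1977.5 to 548.2, 674.7 and 671.6 (-1.21 ± 0.18 SE, adjusted p = 0.00163). With its probe sets averaged the difference was -0.46 (adjusted p = 0.0273). Plau, the urokinase activator, was below the filter, at 54, 91.2 and 68.1 for 10 weeks and 15.9, 16.9 and 55 for 5 weeks. The urokinase receptor gene Plaur did not pass (0.43 ± 0.15 SE, adjusted p = 0.0563).

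Serpina1b and Serpina1c encode alpha-1-antitrypsins, which inhibit neutrophil elastase. Serpina1b read 507.8, 833.9 and 810.1 at 10 weeks and 468.8, 1071.3 and 547.4 at 5 weeks, and Serpina1c read 227.6, 234.1 and 360.2 and then 234.4, 380.5 and 264.6. In both genes 5-week pool 2 was the highest of the 6 pools, and neither passed the test (0.10 ± 0.30 and -0.09 ± 0.22 SE, adjusted p = 0.834 and 0.802). A second Serpina1b probe set read 190.2, 349.8 and 471.6 at 10 weeks and 369, 810.5 and 496.4 at 5 weeks, with overlap and a difference of the other sign that did not pass either (-0.69 ± 0.34 SE, adjusted p = 0.159). With the probe sets averaged the difference was -0.29. These paralogs share sequence, and the Serpina1b probe sets can match several of them. The same pool had a summed signal of 1938 over 3 B cell and lymph node markers, against 174 to 634 in the other 5 pools, and the part of this in the Serpina1 values was not tested. All 4 hepatocyte markers (Alb, Apoa1, Fgb, Ttr) were below the filter, with sums of 80.3 to 176 at 10 weeks and 126 to 200 at 5 weeks. Serpina10 (-0.32 ± 0.20 SE) and Serpind1 (-0.13 ± 0.21 SE), inhibitors of coagulation proteases, did not pass either. Antithrombin (Serpinc1) was just below the filter, with 137.4, 114.9 and 134.3 at 10 weeks and 70.8, 92.6 and 62.4 at 5 weeks.

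Both serpins known to lack protease inhibition in the matrix and secretory pathway were among the brightest members and fell. Serpinf1, or PEDF, an inhibitor of vessel growth, read 3353.1, 4416.8 and 4155.1 at 10 weeks and 7799, 7635.6 and 8387.1 at 5 weeks. The ages lay far apart, with means of 3975 ± 554 (SD, n = 3) and 7941 ± 395 (SD, n = 3), and the log2 difference was -1.0 ± 0.11 (SE, adjusted p = 0.000408). A dimmer Serpinf1 probe set overlapped between ages and did not pass (-0.53 ± 0.23 SE, adjusted p = 0.12). Serpinf1 and Serpinf2, whose call was borderline, are direct neighbours in RefSeq, with differences of opposite sign.

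Serpinh1, the collagen chaperone HSP47 of the endoplasmic reticulum, read 3916.6, 4869.1 and 5434.7 at 10 weeks and 8607.4, 8928.1 and 7757.2 at 5 weeks. All 10-week pools were lower (-0.84 ± 0.13 SE, adjusted p = 0.00157), and its other probe set gave -0.89. Of 15 genes of collagen chains and collagen folding, 12 fell and 1 rose, with a median of -0.82. Among all genes tested 18.7% fell and 15.3% rose, but the collagen list was chosen with earlier results of these data known. Plod2, a collagen lysyl hydroxylase, fell by 2.17, Col5a2 fell by 1.47 and Crtap, a subunit of the prolyl 3-hydroxylase complex, fell by 0.96. The exception was P4hb, the disulfide isomerase that also serves general protein folding, which rose by 0.37. Some of these collagen genes are also in the fibroblast marker list above.

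The genes around the inhibitors moved in both directions. Of 57 proteases, receptors and other inhibitors listed, 45 were tested, 11 rose and 20 fell, with a median of -0.05. These shares were 24.4% and 44.4%, against 15.3% and 18.7% among all genes tested. The list was chosen with earlier results of these data known, so the contrast is a description and no independent test. Among 29 proteases 8 rose and 11 fell. The smallest adjusted p among rises was that of St14, the epithelial protease matriptase (1.73, adjusted p = 9.19e-05). Its Kunitz inhibitors Spint1 (1.70) and Spint2 (1.26) rose too, and Cstb, an inhibitor of cysteine cathepsins, rose by 0.72. Htra1, a secreted serine protease, fell by 1.30. Of 9 receptors and cofactors none rose and 6 fell, at an adjusted p of 0.05. Lrp1, the receptor that clears serpin-protease complexes, fell from 4390.8, 4263.2 and 4461.5 to 1242.6, 1321.9 and 1344 (-1.72 ± 0.09 SE, adjusted p = 2.85e-05). Of the WAP-domain genes with other names, Slpi, the secretory leukocyte protease inhibitor, fell from 7100.8, 5900.2 and 4998.2 to 4286.6, 3006.6 and 4038.8 (-0.66 ± 0.16 SE, adjusted p = 0.0158). Without 5-week pool 1 its adjusted p was 0.052. Wap itself did not pass (adjusted p = 0.1), except without 5-week pool 1 (adjusted p = 0.0464), and Eppin, Wfikkn1 and Wfikkn2 were too dim to be tested.

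**Figure D4:**
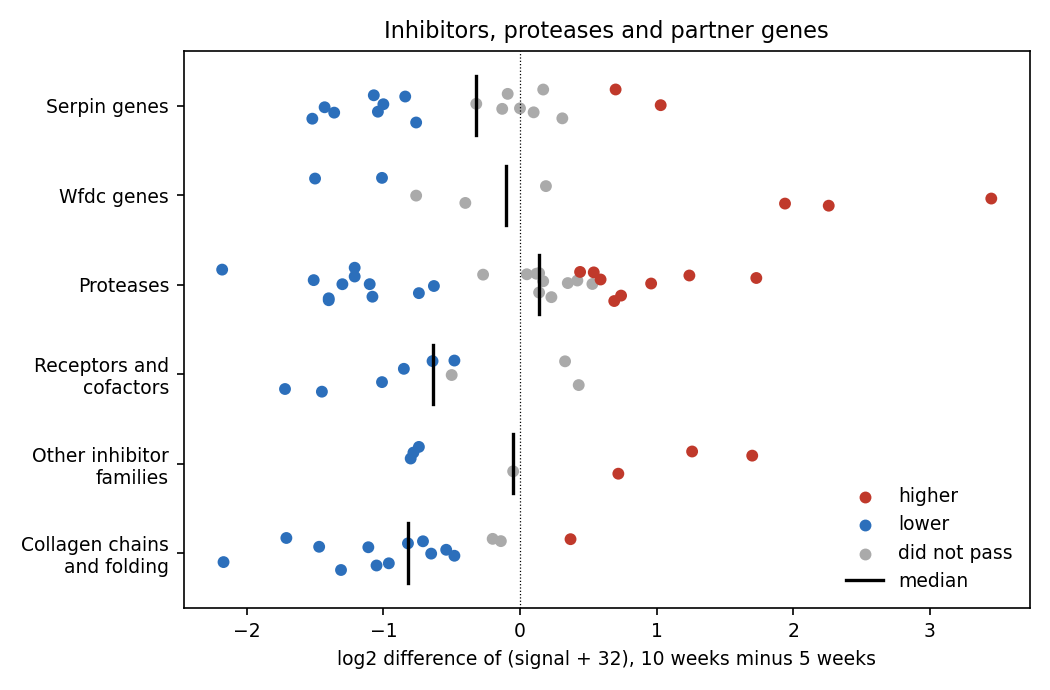
Log2 difference of (signal + 32), 10 minus 5 weeks, for tested Serpin and Wfdc genes and for listed proteases, receptors and cofactors, other inhibitors, and collagen genes; each point is a gene, the bar is the median and the vertical scatter has no meaning. The medians lie between -0.82 for collagen genes and 0.14 for proteases.

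Members that lie close together on a chromosome were then read in their order. In the clade B cluster of chromosome 1, Serpinb5 rose and Serpinb11 and Serpinb8 fell, and the other measured genes there (Serpinb12, Serpinb3a, Serpinb7, Serpinb2) were too dim to be tested. In the clade B cluster of chromosome 13, Serpinb6a and Serpinb6e, whose signals cannot be told apart, fell, while Serpinb6b, Serpinb9 and Serpinb9b did not pass. The other measured genes there (Serpinb1a, Serpinb1b, Serpinb9c, Serpinb9d, Serpinb9g, Serpinb6c) were too dim to be tested, and of these Serpinb1a was called lower with no filter. In the clade A cluster of chromosome 12, Serpina3n alone passed among the 4 genes tested. In the WAP cluster of chromosome 2, Wfdc12 and Wfdc3 (the latter on its brighter probe set only) rose, and Wfdc2, which lies between them, fell. Wfdc15a and Wfdc6a of that cluster did not pass, and Wfdc5 and Wfdc15b were too dim to be tested.

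The 25 members that were too dim to be tested were 10 clade A and 10 clade B serpins, Serpinc1, Serpini1, Serpini2, Wfdc5 and Wfdc15b. In 6 of them the ages did not overlap, a share of 24% where that of all 5191 genes below the filter was 22%: Serpinb1a, Serpinb12, Serpinb1b and Serpinb2 were lower and Serpinc1 and Wfdc15b higher at 10 weeks. Serpinb2, or PAI-2, read 6.6, 11.8 and 13.7 at 10 weeks and 24.6, 26.3 and 31.4 at 5 weeks, values near the bottom of the range. Serpini1, the neuronal serpin neuroserpin, was uneven within an age, with 121.4 in 10-week pool 1 and 26.1 and 24.5 in the other 10-week pools. At 5 weeks it read 111.3, 139.6 and 83.8, so the ages overlapped through 10-week pool 1. Other probe sets of Serpini1, dimmer still, did not show this unevenness. At 10 weeks 1 read 52.9, 42.7 and 41.6 and another 20.5, 21.5 and 17.4. The 10-week pool 1 also had the lowest muscle marker sum, and a link to Serpini1 was not tested. Of 4 neuron markers 3 were below the filter.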

How the data were processed

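Expression arrays were probed with biotin-labelled RNA of mammary gland pools, per the labels. The values are linear intensities per probe set, as deposited by the authors. The signal algorithm, detection calls and scan dates are not given in the sources used here. Each pool was 1 array, so p-values measure the spread between pools and not between single animals.

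Gene symbols came from the platform annotation (34945 of 45037 probe sets had 1 symbol, 932 had several and 9160 had none), updated through RefSeq (GRCm38.p6), which matched 34741. Signals below 1 were raised to 1 before log2(value + 32), and no normalization was added because array medians lay within 0.118. Age was tested two-sided with limma 3.58.1 in R 4.3.3 (lmFit, then eBayes allowing the variance to follow the mean) on 27022 probe sets, the dimmest 40% being dropped. Benjamini-Hochberg adjustment covered all of them, with a threshold of 0.05, and intervals are 95% limits of that fit. The brightest probe set stood for each gene. An exact permutation of 3 against 3 pools cannot go below p = 0.1.

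Members and lists were chosen with earlier results of these data known. By rule, the text names every member that passed, the 4 brightest that did not, a few fixed genes, and the partner (4 per direction) and collagen (3) genes with the smallest adjusted p. Furin, Gzmb, C1ra, Masp1, Ctsg, P4hb, marker genes and the remaining members were named after their values were seen. In simulated data 50 of 27022 probe sets were changed at each of 4 sizes. Of these, 4% were recovered at a log2 size of 0.5, 54% at 1, 88% at 2 and 98% at 3. In the real data 28.8% of probe sets tested were called, so the adjustment was stricter in the simulation. Its recovery rates therefore do not describe the real comparison. The alternatives tried changed the offset, filter, normalization, variance model, array weights or probe set rule, or left out a pool.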

Additional observations from a re-analysis of the deposited data

How the results depend on the processing

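Under 15 alternatives (offsets of 1 and 100, no filter or 60% left out, quantile normalization, no variance trend, robust variance, array weights, averaged probe sets, and each pool left out in turn) 4 to 5 members were higher and 9 to 11 lower. Proteases and partners gave 9 to 13 higher and 17 to 20 lower, and collagen genes 12 to 13 lower. Among members, calls changed for Serpinf2 (6 of 14 alternatives), Wfdc17 with robust variance and Wfdc1 without 5-week pool 2, as given above. Serpinb1a was called lower with no filter and with an offset of 100, and Serpinb8 and Serpinf2 were not tested with 60% left out. Plaur passed in 4 alternatives (adjusted p = 0.0275 to 0.0488). No called difference changed sign. Of the other WAP-domain genes 1 was called under every alternative; without 5-week pool 1 it was Wap and not Slpi. No paired analysis was possible because the labels give no replicate numbers shared between the ages. Differences in dim genes are limited by signal over background, and no detection calls were used.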

Other observations

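Besides the 67 probe sets above, 3 probe sets carry several Serpin symbols. The one for Serpinb9e, Serpinb9f, Serpinb9g and Serpinb9h, clade B genes of the same cluster as Serpinb9, read 105.7, 186.9 and 132.4 at 10 weeks and 103.9, 112 and 132.5 at 5 weeks. The ages overlapped, and the log2 difference of 0.21 ± 0.21 (SE) did not pass limma's test (adjusted p = 0.503). The other two, for alpha-1-antitrypsin paralogs, gave signals of at most 17.8 in any pool and were below the filter.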
